A study of Mus musculus with 14 samples.

Results

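The liver 12 h after partial hepatectomy was compared with normal liver, using the 2 arrays whose titles give 12 h and the 2 whose titles give normal mouse liver, 4 of the 14 arrays of the series. Partial hepatectomy (PHx) is an operation that takes out part of the liver, and the remnant grows back. Total RNA of mouse liver, extracted from pools of 4 to 6 mice and labelled with biotin, was measured on 1-colour arrays. The normal liver is given only as such, with no operation or sham operation named, and no source used here gives strain, sex, age, anaesthesia or feeding. The other groups, 4, 8, 36, 48 and 72 h after PHx with 2 arrays each, gave the fit its estimate of spread, and 8 and 36 h were set against 12 h directly. It is not stated if both arrays of a time come from 1 pool or from separate ones, so p-values measure the spread between these arrays, which may be technical.

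In the remnant liver most hepatocytes leave quiescence together. Cytokines, interleukin 6 and tumour necrosis factor among them, first prime the cells through STAT3 and NF-kB. Growth factors such as hepatocyte growth factor then carry them through G1, the phase in which 12 h falls by the usual timing in rodents. G1 is a phase of cell growth and ribosome production that ends when cyclin-dependent kinases release the genes of DNA replication. The same cells must go on making plasma proteins, bile and glucose, and rodent remnants store fat for a time while they prepare to divide.

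An intensity is the deposited brightness of a probe set on a linear scale, comparable between arrays of 1 probe set and not between probe sets. A change is the difference of log2(intensity + 57) at 12 h minus normal liver, which understates the change of dim genes. Standard errors (SE) and p-values come from a limma fit to all 14 arrays, adjusted by Benjamini-Hochberg over 13576 probe sets and called at 0.05. Of these probe sets 812 (5.98%) were called higher at 12 h and 844 (6.22%) lower, 1656 in all (12.2%). While 0 of the called probe sets had overlapping arrays, uncalled ones can lack overlap too. The share without overlap over all 13576 is not given here, so this count does not strengthen the calls. By gene, with the brightest probe set standing for it, 511 of 8453 rose (6.05%) and 570 fell (6.74%), and the median change over all genes was 0.12. Each list count below is to be read against these shares. Quantile normalization moved the median over all probe sets from 0.12 to 0.02, with 773 higher and 986 lower. The second normal array carried much of the count, since without it 274 probe sets were called higher and 305 lower, while without the first there were 1380 and 809.

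The arrays at 12 h were less alike than other pairs, with a correlation across probe sets of 0.910 against 0.942 to 0.970 in the other groups. In the second 12 h array the 5′ signal of pyruvate carboxylase, a control transcript, was 0.0910 of the 3′ signal, against 0.479 in the first and 0.318 to 0.378 in normal liver. The second arrays of 8, 36 and 72 h had a like low ratio. No label names these 4 arrays as a batch, and they are grouped here by that measured ratio alone. With them as a block, 1321 of the 1656 calls stood. Without them 421 stood and all 1656 kept their sign, the single 12 h array left being assumed to vary like the other groups. Since no called probe set had overlapping arrays, these signs could not have changed, and their agreement is no test of the calls. Of the 1081 called genes, 936 differed by less than 2-fold between the 12 h arrays, 77 were over 2-fold higher in the second and 68 over 2-fold lower. The part of RNA quality in the difference was not tested.

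**Figure D1:**
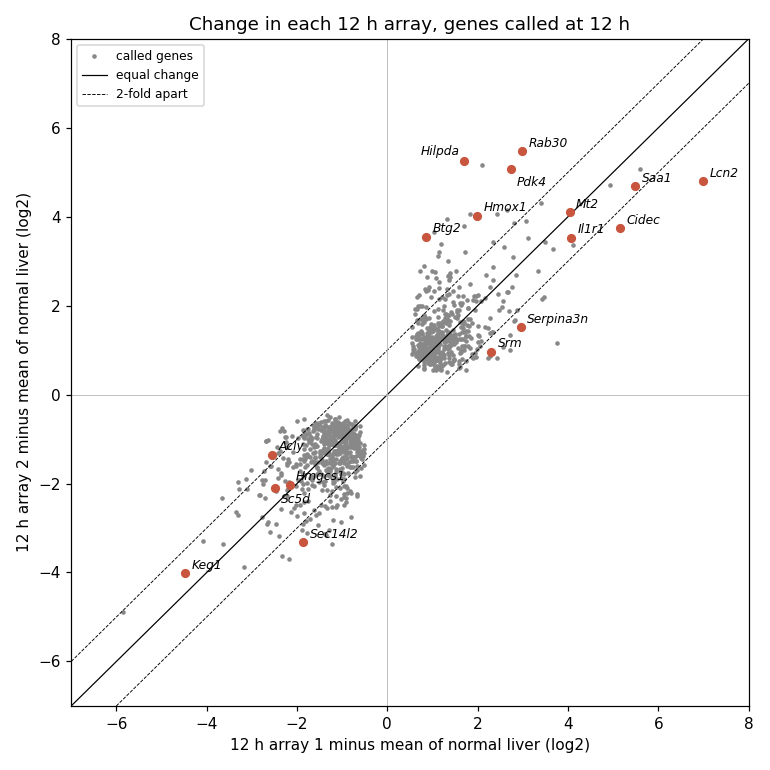
Change of each called gene in the first 12 h array (horizontal) and in the second (vertical), each against the mean log2 of the 2 normal arrays. Each point is a gene, and dashed lines mark a 2-fold gap between the arrays. All 1081 genes lie on the same side of 0 in both arrays, as they must where no called probe set has overlapping arrays. Rab30, Pdk4, Hilpda, Hmox1 and Btg2 lie above the upper line, and Lcn2, Cidec and Serpina3n below the lower.

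Of the 240 named genes that were called, 131 remained called without each of the 4 arrays in turn, and 98 of them also with the block and without the 4 arrays. Among the 20 largest rises and 20 largest falls these numbers were 39 and 38 of 40, with Hilpda and Shfl as the exceptions. Hilpda did not pass without the second normal array, and Shfl did not pass without the 4 arrays.

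**Figure D2:**
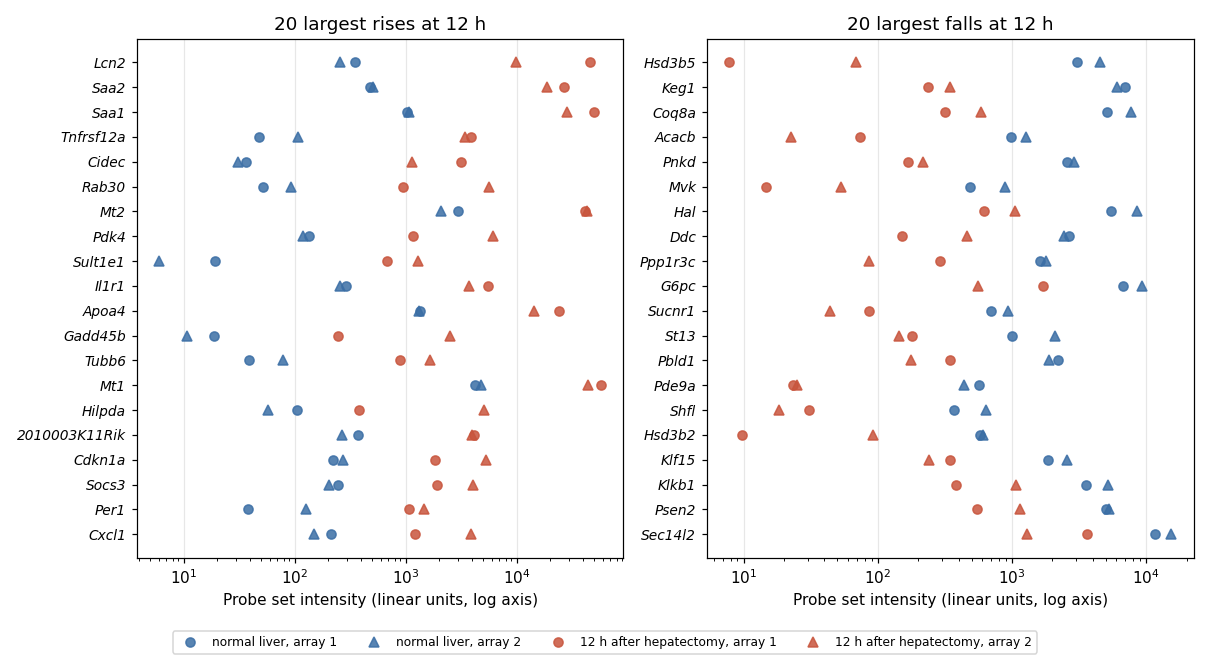
Intensity in each of the 4 arrays for the 20 largest rises (left) and the 20 largest falls (right) at 12 h against normal liver, on a log axis. Circles are the first and triangles the second array of a group, blue for normal liver and red for 12 h. Genes were picked only where the arrays of the groups did not overlap, so the red and blue points lie apart in every row by that rule.

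Promoters of 6 genes that the changes turn on are shown, from the RefSeq table of build GRCm38.p6, each as the 250 bases before the start, 5′ to 3′ on the gene's strand. Capitals mark matches on either strand to a short motif. Metallothionein genes are shown with a loose form of the metal response element core (TGCNCNC), which takes any base at N. Saa1 and Saa2 are shown with a C/EBP motif (TTNNGCAA), Socs3 with a STAT motif (TTCNNNGAA) and Hmgcs1 with a sterol regulatory motif (TCACNCCAC). Over the 32851 promoters of the table, 44.4%, 9.56%, 7.02% and 1.05% hold at least 1 match to these in turn. Mt2 holds 5 matches to the first, a number that 0.344% of promoters reach, and each of the other promoters holds 1 match to its motif. Not all 5 need fit a stricter core. A match is a description of the letters and not a site shown to be bound. Only the 250 bases before the annotated start were searched, so a count of 1 does not show that a gene is poor in the motif.
Mt1, chr8:94178839-94179088, plus strand: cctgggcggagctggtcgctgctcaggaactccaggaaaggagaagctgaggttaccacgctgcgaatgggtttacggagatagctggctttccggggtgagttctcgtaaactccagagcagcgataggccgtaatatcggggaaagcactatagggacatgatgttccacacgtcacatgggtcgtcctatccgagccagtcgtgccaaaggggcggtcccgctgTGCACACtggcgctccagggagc
Mt2, chr8:94172368-94172617, plus strand: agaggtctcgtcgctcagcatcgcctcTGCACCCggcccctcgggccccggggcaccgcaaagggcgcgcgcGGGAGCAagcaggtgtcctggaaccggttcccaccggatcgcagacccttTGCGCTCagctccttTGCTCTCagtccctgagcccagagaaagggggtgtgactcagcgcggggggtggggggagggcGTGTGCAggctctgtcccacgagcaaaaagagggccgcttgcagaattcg
Saa1, chr7:46742981-46743230, minus strand: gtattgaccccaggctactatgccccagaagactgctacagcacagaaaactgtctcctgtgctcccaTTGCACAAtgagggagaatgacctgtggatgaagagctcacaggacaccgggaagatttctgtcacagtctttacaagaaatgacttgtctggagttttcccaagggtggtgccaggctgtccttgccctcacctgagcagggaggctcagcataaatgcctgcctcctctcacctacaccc
Saa2, chr7:46751583-46751832, plus strand: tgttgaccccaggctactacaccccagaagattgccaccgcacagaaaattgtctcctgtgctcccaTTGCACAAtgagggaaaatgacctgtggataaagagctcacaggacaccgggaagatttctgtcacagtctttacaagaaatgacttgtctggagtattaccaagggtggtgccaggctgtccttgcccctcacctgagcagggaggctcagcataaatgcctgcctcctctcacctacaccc
Socs3, chr11:117969367-117969616, minus strand: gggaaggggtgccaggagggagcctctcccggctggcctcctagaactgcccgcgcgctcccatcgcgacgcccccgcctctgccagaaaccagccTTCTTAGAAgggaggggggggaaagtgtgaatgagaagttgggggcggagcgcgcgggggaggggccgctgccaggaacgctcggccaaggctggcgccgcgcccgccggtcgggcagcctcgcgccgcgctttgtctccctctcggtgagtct
Hmgcs1, chr13:119690101-119690350, plus strand: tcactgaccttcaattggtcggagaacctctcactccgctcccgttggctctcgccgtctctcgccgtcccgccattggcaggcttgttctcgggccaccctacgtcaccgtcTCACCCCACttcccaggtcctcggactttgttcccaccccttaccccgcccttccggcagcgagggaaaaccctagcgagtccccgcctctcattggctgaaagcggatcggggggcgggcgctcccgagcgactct
Saa1 and Saa2 lie in opposite orientation with starts 8853 bases apart, and 238 of 251 aligned positions (94.8%) of their promoters are identical. Mt1 and Mt2 start 6471 bases apart on the same strand.

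Genes of cytokine reception rose at 12 h. Of the list of interleukin 1 receptor and NF-kB genes, 8 of 22 tested genes rose and 0 fell, with a median change of 0.88 against 0.12 over all genes. The 8 called members became 4 without the second normal array, 4 without the second 12 h array and 3 without the 4 arrays of low 5′ signal. Il1r1, the signalling receptor of interleukin 1, read 293 and 258 in normal liver and 5526 and 3753 at 12 h, a change of 3.8 (SE 0.24, adjusted p = 5.29e-06). Tnfrsf12a, the receptor of the cytokine TWEAK, read 47.4 and 108 in normal liver and 3925 and 3410.0 at 12 h, a change of 4.82 (SE 0.72, adjusted p = 0.00151). The arrays of each group lay far apart from those of the other for both receptors. Cxcl1, a chemokine that draws neutrophils, read 214 and 151 in normal liver and 1219 and 3909.8 at 12 h, so that the second 12 h array was 3.21-fold above the first while both stood clear of normal liver (change 3.25, SE 0.41, adjusted p = 0.000651). Nfkbib, an inhibitor of NF-kB, rose by 1.28 (adjusted p = 0.00387). Tumour necrosis factor receptors Tnfrsf1a (1.12) and Tnfrsf1b (1.21, with 607 and 1459 at 12 h) and the feedback genes Il1rn (0.93) and Tnip1 (0.83) rose too, and with the 4 arrays of low 5′ signal as a block none of these 4 passed, at adjusted p of 0.0609, 0.0828, 0.0536 and 0.0723. Tnfrsf1b and Il1rn did not pass without the first normal array (adjusted p between 0.0764 and 0.0858). Tnfrsf1a, Tnfrsf1b, Il1rn and Tnip1 did not pass without the second normal array (adjusted p between 0.107 and 0.266). Tnfrsf1a, Tnfrsf1b, Il1rn and Tnip1 did not pass without the second 12 h array (adjusted p between 0.144 and 0.266). For Tnfrsf1b (change 0.49) and Il1rn (change 1.04 and 1.31) dimmer probe sets did not pass.

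In the interleukin 6 pathway the gp130 family acts through the kinases Jak1 and Jak2 and the factor STAT3, with Socs3 as its feedback inhibitor. Here 6 of 20 tested genes rose and 2 fell, with a median of 0.44. The count of 8 moved to 5 without the 4 arrays of low 5′ signal. Socs3 read 248 and 206 in normal liver and 1918 and 4029 at 12 h, a change of 3.33 (SE 0.33, adjusted p = 0.000140). Stat3 itself went from 1206 and 1636 to 2923 and 5346 (change 1.46, SE 0.31, adjusted p = 0.0115). Both 12 h arrays exceeded both normal arrays for each, and the second was the higher. Cebpd (2.44) and Cebpb (1.27), C/EBP factors that drive acute-phase genes, rose, as did Osmr, the oncostatin M receptor (1.48), and the nuclear cofactor Bcl3 (0.92). Lifr, the receptor of leukaemia inhibitory factor, fell from 4761 and 4169 to 1178 and 2046 (change -1.49, SE 0.29, adjusted p = 0.00706), and Socs2, a target of growth hormone, from 941 and 1071 to 206 and 643 (change -1.3, SE 0.37, adjusted p = 0.0408). Il6st, which encodes gp130, read 1226 and 1220.5 in normal liver and 2077 and 1745 at 12 h with no overlap of arrays and did not pass the test (change 0.62, SE 0.21, adjusted p = 0.0730). Bcl3 and Socs2 did not pass without the first normal array (adjusted p between 0.0591 and 0.0666). Bcl3 and Socs2 did not pass without the second normal array (adjusted p between 0.195 and 0.196). Bcl3 and Socs2 did not pass without the first 12 h array (adjusted p between 0.184 and 0.197). Stat3 and Cebpb did not pass without the second 12 h array (adjusted p between 0.0585 and 0.0741). For Socs3 (change 1.39), Stat3 (change 0.32), Cebpb (change 0.97), Osmr (change 0.94) and Socs2 (change -1.42) dimmer probe sets did not pass. Another dimmer one passed for Socs3 (1.97) and for Stat3 (0.94).

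Acute-phase proteins are secreted by hepatocytes in inflammation and infection. Of this list 11 of 25 tested genes rose and 2 fell, with a median of 0.88. Lcn2, a lipocalin that binds iron carriers of bacteria, read 352 and 257 in normal liver and 45689.7 and 9918 at 12 h, a change of 5.9 (SE 0.49, adjusted p = 5.04e-05), the first 12 h array being 4.61-fold above the second. Serum amyloid genes followed, with Saa1 going from 1041 and 1066 to 49876 and 28516 (change 5.09, SE 0.29, adjusted p = 4.50e-06) and Saa2 from 484 and 511 to 26887 and 18707 (change 5.34, SE 0.32, adjusted p = 4.50e-06). Their probe sets are of kinds that can share sequence with family members, so the near-identical Saa1 and Saa2 may not be told apart. Serpina3n, a protease inhibitor, went from 3109.9 and 4107 to 28062 and 10333 (change 2.23, SE 0.39, adjusted p = 0.00380), again higher in the first 12 h array. Orosomucoids Orm2 and Orm3, close paralogs whose probes may share sequence, rose by 2.83 and 1.67, and the metal reductase Steap4 by 2.39. For Orm2 the 12 h arrays read 2429 and 965, the first being 2.52-fold above the second. Saa4, the constitutive member of the amyloid family, moved the other way, from 5003 and 4337 to 1798 and 1009.8 (change -1.75, SE 0.28, adjusted p = 0.00203). Fibrinogen chains Fgb and Fgg, also acute-phase proteins, did not pass, with overlapping arrays and changes of 0.02 and 0.27.

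Immediate-early genes encode transcription factors that growth signals switch on without new protein synthesis. At 12 h 11 of 26 tested genes were higher and 0 lower, and the list's median was 0.63 in the first 12 h array and 1.37 in the second. In 12 of the 26 genes the second 12 h array was over 2-fold above the first, and in 0 over 2-fold below, against 400 and 442 of all 8453 genes. In place of 11 calls there were 2 without the second normal array, 6 without the second 12 h array and 2 without the 4 arrays of low 5′ signal. Ier3, a survival gene induced by NF-kB, read 114 and 119 in normal liver and 445 and 594 at 12 h (change 1.72, SE 0.23, adjusted p = 0.000879). Junb, a partner in the AP-1 factor, read 415 and 271 in normal liver and 817 and 2235 at 12 h (change 1.85, SE 0.37, adjusted p = 0.00798). Jun, whose deletion from hepatocytes is known to slow regeneration, read 682 and 451 in normal liver and 1003 and 1866 at 12 h (change 1.22, SE 0.31, adjusted p = 0.0225). The 12 h arrays exceeded normal liver in all 3 genes and were closest to each other for Ier3. Rhob, a small GTPase, rose by 1.57, the Krüppel-like factors Klf10 (from 338 and 320.5 to 619 and 1271) and Klf4 by 1.29 and 1.26, Ier5 by 1.2 and the matrix protein gene Ccn2 by 1.14. Myc, which drives cell growth, read 556 and 574 in normal liver and 523 and 1536 at 12 h, with overlapping arrays, and did not pass (adjusted p = 0.306). Junb, Jun, Klf10, Klf4, Ier5 and Ccn2 did not pass without the second normal array (adjusted p between 0.0813 and 0.202). Ccn2 did not pass without the first 12 h array (adjusted p of 0.0731). Jun, Klf10, Klf4 and Ier5 did not pass without the second 12 h array (adjusted p between 0.0770 and 0.146). For Jun (change 0.39) dimmer probe sets did not pass.

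Several of the largest rises were carried mainly by the second 12 h array. Gadd45b, a stress sensor induced by NF-kB, was not above background in normal liver and read 248 and 2514 at 12 h, at least 14-fold higher (adjusted p = 0.00453). Rab30, a Golgi GTPase, went from 51.5 and 93 to 956 and 5607 (change 4.23, SE 0.56, adjusted p = 0.000922). Hilpda, a lipid droplet protein induced by hypoxia and fatty acids, went from 106 and 57.4 to 383 and 5135 (change 3.47, SE 0.79, adjusted p = 0.0149). In each of these the second array was over 5-fold above the first, and the first was above both normal arrays. Hmox1, haem oxygenase, read 257 and 163 in normal liver and 987 and 4187 at 12 h (change 3.0, SE 0.63, adjusted p = 0.010), and the antiproliferative gene Btg2 read 912 and 559 in normal liver and 1344 and 9022 at 12 h (change 2.21, SE 0.61, adjusted p = 0.0348). Btg2 did not pass with the 4 arrays of low 5′ signal as a block (adjusted p = 0.0597). In the list of MAP kinase phosphatases and feedback genes, where Gadd45b was the 1 of 13 that rose, 7 genes were over 2-fold higher in the second array and 1 over 2-fold lower. Hilpda, Hmox1 and Btg2 did not pass without the second normal array (adjusted p between 0.0861 and 0.217). Hmox1 and Btg2 did not pass without the second 12 h array (adjusted p between 0.0690 and 0.133). For Gadd45b (change 0.70 and 1.62) and Btg2 (change 1.93) dimmer probe sets did not pass.

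Genes of the G1 machinery changed in few members. Of this list 3 of 22 tested genes rose and 1 fell, with a median of 0.23. Called members numbered 2 without the second normal array, 2 without the second 12 h array and 1 without the 4 arrays of low 5′ signal, against 4. Cdkn1a, which encodes the kinase inhibitor p21, read 222 and 274 in normal liver and 1859 and 5352 at 12 h (change 3.4, SE 0.38, adjusted p = 0.000283). Cdc25a, a phosphatase that activates G1 kinases, rose by 1.63 (adjusted p = 0.0210), and Ccne1, cyclin E1, went from 53.7 and 119 to 249 and 264 (change 1.17, SE 0.32, adjusted p = 0.0344). The retinoblastoma relative Rbl2, a marker of quiescent cells, fell from 434 and 418 to 242 and 188 (change -0.83, SE 0.21, adjusted p = 0.0225). Ccne1 did not pass with the block (adjusted p = 0.0631). Ccnd1, cyclin D1, read 855 and 735 in normal liver and 1975 and 459.6 at 12 h, so the first 12 h array lay above and the second below both normal arrays, and it did not pass (change 0.27, SE 0.45, adjusted p = 0.714). Cdk4 read 299 and 608 in normal liver and 756 and 212 at 12 h, Cdkn1b, the inhibitor p27, 211 and 93.4 in normal liver and 169.6 and 96.5 at 12 h, and E2f1 115 and 99.1 in normal liver and 52.9 and 56.8 at 12 h, none of which passed. Ccne1 and Rbl2 did not pass without the first normal array (adjusted p between 0.0551 and 0.133). Cdc25a and Rbl2 did not pass without the second normal array (adjusted p between 0.0975 and 0.180). Ccne1 did not pass without the first 12 h array (adjusted p of 0.0753). Cdc25a, Ccne1 and Rbl2 did not pass without the second 12 h array (adjusted p between 0.105 and 0.114). For Cdc25a (change 0.80) dimmer probe sets did not pass.

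No gene on the lists of DNA replication and mitosis was called higher at 12 h, while single genes of these processes outside the lists were. Of the MCM helicase and replication list 0 of 24 rose and 3 fell in the limma fit (0 and 6 at an unadjusted p under 0.05). Of the mitosis list 0 of 23 rose and 2 fell (3 and 4 at an unadjusted p under 0.05), and the lists' medians were -0.07 and 0.19. The 3 called members became 1 without the second normal array and 1 without the 4 arrays of low 5′ signal. Pcna, the sliding clamp of DNA polymerase, read 1136 and 1497 in normal liver and 1358 and 1215 at 12 h (change -0.02, SE 0.21, adjusted p = 0.959). Cdk1, the kinase of mitosis, read 78.3 and 117 in normal liver, was not above background at 12 h and did not pass (adjusted p = 0.0810). Background was 72.6 and 43.6 in the normal arrays but 103 and 138 at 12 h. An unchanged level of 78.3 would thus not be above background at 12 h. Those that fell were Tk1, thymidine kinase, from 551 and 802 to 81.8 and 245 (change -1.82, SE 0.33, adjusted p = 0.00473), Mcm10 (-1.37), the licensing inhibitor Gmnn (-1.64, from 286 and 261 to 113 and 9.6), Pttg1, securin (-1.1), and the centromeric histone Cenpa, at least 1.33-fold lower. Outside the lists, and named after their values were seen, Cks1b, a small subunit of cyclin-dependent kinases, read 376 and 455 in normal liver and 1621 and 913 at 12 h (change 1.44, SE 0.26, adjusted p = 0.00443), and passed without each of the 4 arrays in turn. Pclaf, a partner of PCNA, read 85.1 and 92 in normal liver and 239.6 and 349 at 12 h (change 1.25, SE 0.25, adjusted p = 0.00784), which did not pass without the 4 arrays of low 5′ signal (adjusted p = 0.114). Pole4 of DNA polymerase epsilon, Wee1, a kinase that holds Cdk1 inactive, and the mitosis genes Ska2, Cdc16 and Haus2 rose by 0.94, 1.2, 1.01, 0.91 and 0.88, and each of these 5 lost its call without at least 1 of the 4 arrays. Tk1, Gmnn and Pttg1 did not pass without the second normal array (adjusted p between 0.0537 and 0.116). Gmnn and Pttg1 did not pass without the second 12 h array (adjusted p between 0.0556 and 0.0813). For Pttg1 (change -0.68) dimmer probe sets did not pass.

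Ribosome biogenesis was the list with the largest share of rises. In it 22 of 38 tested genes rose and 0 fell, with a median of 0.99, 1.05 in the first 12 h array and 0.88 in the second. With the 4 arrays of low 5′ signal as a block 22 rose. The count of 22 moved to 9 without the second normal array, 11 without the first 12 h array and 7 without the 4 arrays of low 5′ signal. Gnl3, nucleostemin, a nucleolar GTPase, read 518 and 506 in normal liver and 1895 and 2147 at 12 h (change 1.87, SE 0.22, adjusted p = 0.000465). Nop58, a core protein of the box C/D particles that methylate ribosomal RNA, read 159 and 113 in normal liver and 685 and 762 at 12 h (change 2.02, SE 0.30, adjusted p = 0.00148), and its partner Nop56 121 and 312 in normal liver and 1151 and 671 at 12 h (change 1.87, SE 0.32, adjusted p = 0.00347). Nhp2, of the box H/ACA particles, read 630.3 and 689 in normal liver and 2111 and 2157 at 12 h (change 1.61, SE 0.22, adjusted p = 0.000941). The 12 h arrays stood within 2-fold of each other in all 4 genes and above both normal arrays. Nip7, Rrs1, Tsr1 and Nolc1, which act in subunit assembly or nucleolar transport, rose by 1.36, 1.29, 1.47 and 1.32. Nolc1 did not pass without the first 12 h array (adjusted p of 0.0527). For Nip7 (change 0.47) and Nolc1 (change 0.85) dimmer probe sets did not pass.

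The ribosomal proteins themselves had no calls, with 0 of 37 tested genes called by limma in either direction, 5 higher and 0 lower at an unadjusted p under 0.05, and a median of 0.28. Of the proteasome, which degrades proteins, 0 of 34 genes were called, the median was -0.02 (0.10 and -0.17 in the 12 h arrays) and 1 gene had an unadjusted p under 0.05. Among translation factors and tRNA synthetases 4 of 25 rose. These were Eif6, which keeps large ribosomal subunits apart from small ones (1.64), Eif1a (1.45), Eef1e1 (1.26) and the cap-binding factor Eif4e (0.76), and Eif4e did not pass with the block (adjusted p = 0.0521). Of polyamine and Myc target genes 5 of 18 rose and 1 fell. In place of 6 calls there were 2 without the second normal array and 2 without the 4 arrays of low 5′ signal. Odc1, the first enzyme of polyamine synthesis, read 962 and 1048 in normal liver and 3207 and 1991 at 12 h (change 1.28, SE 0.25, adjusted p = 0.00705). Srm, spermidine synthase, read 899 and 785 in normal liver and 4375 and 1689.7 at 12 h (change 1.63, SE 0.34, adjusted p = 0.00952), and Sat1, the enzyme that breaks polyamines down, 1436 and 1322 in normal liver and 2726 and 6472 at 12 h (change 1.57, SE 0.35, adjusted p = 0.0130). Srm was higher in the first 12 h array and Sat1 in the second. Ctps, CTP synthase, rose by 1.61 and Paics, an enzyme of purine synthesis, fell from 4866 and 5577 to 1860.1 and 2585 (change -1.23, SE 0.25, adjusted p = 0.00794). Eif4e, Srm, Sat1 and Paics did not pass without the second normal array (adjusted p between 0.0643 and 0.293). Eif4e did not pass without the first 12 h array (adjusted p of 0.0776). Eif4e and Sat1 did not pass without the second 12 h array (adjusted p between 0.0701 and 0.130). For Eif4e (change 0.66 and 0.68), Odc1 (change 0.80) and Paics (change -0.46 and -0.44) dimmer probe sets did not pass, while another of Odc1 did (2.14).

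**Figure D3:**
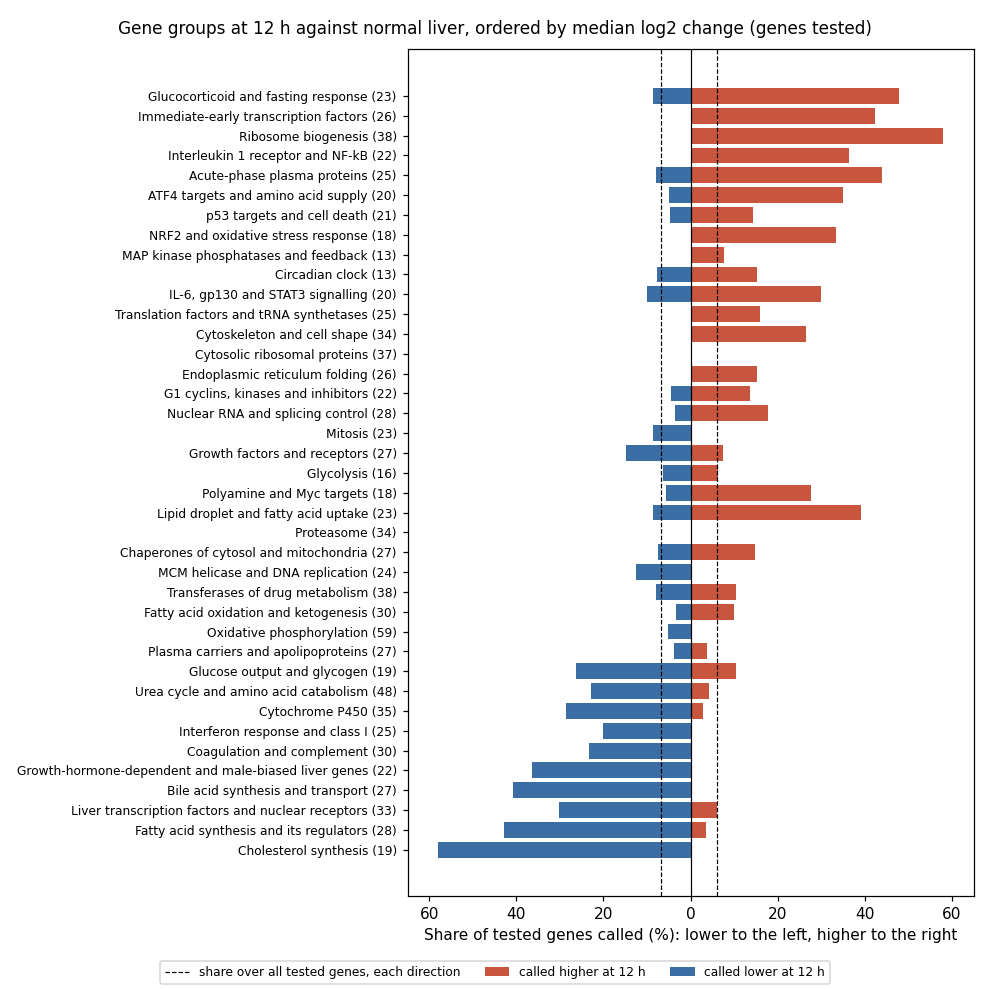
Share of the tested genes of each list called higher (right, red) or lower (left, blue) at 12 h against normal liver, the number of tested genes in brackets, ordered by the list's median change. Dashed lines mark the shares over all tested genes, 6.05% higher and 6.74% lower. Ribosome biogenesis has the largest share of rises and cholesterol synthesis the largest share of falls.

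Genes of amino acid supply and protein folding rose in part. ATF4 is a factor that cells translate when amino acids are short or the endoplasmic reticulum is loaded, and of its targets 7 of 20 rose and 1 fell, with a median of 0.87. Called members numbered 2 without the second normal array, 5 without the second 12 h array and 3 without the 4 arrays of low 5′ signal, against 8. With the 4 arrays of low 5′ signal as a block 4 rose. Psat1, an enzyme of serine synthesis, was not above background in normal liver, read 167 and 298 at 12 h and was at least 3.97-fold higher (adjusted p = 0.000716). Slc3a2, the heavy chain of amino acid exchangers, went from 1226 and 1501 to 4699.8 and 3469 (change 1.53, SE 0.22, adjusted p = 0.00138), and Asns, asparagine synthetase, from 547 and 294 to 1245 and 1048 (change 1.38, SE 0.27, adjusted p = 0.00706). Atf4 itself rose by 0.90 and its target Ddit3 by 0.98, and neither passed with the block (adjusted p of 0.0585 and 0.0748). For the endoplasmic reticulum 4 of 26 rose and 0 fell. The 4 called members became 2 without the first 12 h array and 7 without the second 12 h array. Xbp1, the factor that expands the secretory apparatus, read 5951 and 5753 in normal liver and 15416 and 14611 at 12 h (change 1.35, SE 0.21, adjusted p = 0.00166), and the cochaperone Dnajb9 1365 and 918 in normal liver and 6446 and 4361 at 12 h (change 2.19, SE 0.28, adjusted p = 0.000722). Both were even between the 12 h arrays to within 2-fold. Manf read 1582 and 2495 in normal liver and 10902 and 3575 at 12 h and Herpud1 1469.7 and 2813 in normal liver and 6925 and 3455 at 12 h, each higher in the first 12 h array, with changes of 1.62 and 1.24. Hspa5, the main chaperone there, read 7625 and 14223 in normal liver and 33578 and 12704 at 12 h, with overlapping arrays, and did not pass (change 0.98, SE 0.41, adjusted p = 0.133). In this list 8 of 26 genes were over 2-fold lower in the second 12 h array and 0 over 2-fold higher. Atf4, Ddit3, Manf and Herpud1 did not pass without the first normal array (adjusted p between 0.0663 and 0.175). Asns, Atf4 and Ddit3 did not pass without the second normal array (adjusted p between 0.0718 and 0.181). Manf and Herpud1 did not pass without the first 12 h array (adjusted p between 0.0907 and 0.209). Atf4 and Ddit3 did not pass without the second 12 h array (adjusted p between 0.142 and 0.213). For Xbp1 a dimmer probe set did not pass (change 0.99), while others did (1.27 and 1.32). Dimmer probe sets of Atf4 (1.29) and Herpud1 (1.39) also passed.

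Metallothioneins, small proteins that bind zinc and copper, rose in both 12 h arrays alike. Mt2 read 2952 and 2086 in normal liver and 41767 and 43446 at 12 h (change 4.07, SE 0.29, adjusted p = 1.48e-05), and Mt1 4261 and 4756 in normal liver and 58004 and 44070.2 at 12 h (change 3.47, SE 0.26, adjusted p = 2.15e-05). For both genes the 12 h arrays lay closer to each other than to either normal array. They are members of the list of NRF2 and oxidative stress genes, of which 6 of 18 rose and 0 fell, with a median of 0.58. Txnrd1, thioredoxin reductase, read 1622 and 1440.4 in normal liver and 3700.4 and 6236 at 12 h (change 1.62, SE 0.24, adjusted p = 0.00162), and Srxn1, sulfiredoxin, 724 and 782 in normal liver and 2037 and 5184 at 12 h (change 2.03, SE 0.38, adjusted p = 0.00563), both highest in the second 12 h array. Of p53 targets and cell death genes 3 of 21 rose and 1 fell. Bad, which promotes cell death, fell from 577 and 457 to 58.1 and 155 (change -1.87, SE 0.34, adjusted p = 0.00451). Among chaperones Hspb8 rose from 1838 and 2020.2 to 4784 and 6487 (change 1.5, SE 0.25, adjusted p = 0.00285) and its partner Bag3 by 1.36, while Fkbp4, a cochaperone of steroid receptors, fell from 1126 and 1975 to 234 and 364 (change -2.15, SE 0.40, adjusted p = 0.00562). Bag3 and Fkbp4 did not pass without the second normal array (adjusted p between 0.0648 and 0.0742). For Txnrd1 (change 0.66 and 0.36), Srxn1 (change 0.88), Bad (change -1.24) and Hspb8 (change 1.0 and 0.59) dimmer probe sets did not pass.

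Of genes that respond to glucocorticoids and fasting more were called higher than lower. Of this list 11 of 23 rose and 2 fell, with a median of 1.15, where over all genes 6.05% rose and 6.74% fell, and several of its members, metallothioneins and C/EBP factors among them, stand in other lists too. Per1, a clock gene that glucocorticoids induce, read 38 and 126 in normal liver and 1079.5 and 1465 at 12 h (change 3.32, SE 0.51, adjusted p = 0.00177). Fgf21, a hormone of the fasted liver, was not above background in normal liver, read 520.3 and 392 at 12 h and was at least 8.03-fold higher (adjusted p = 0.00110). Pdk4, the kinase that shuts pyruvate out of the citric acid cycle, read 135 and 120.4 in normal liver and 1175 and 6183 at 12 h (change 3.91, SE 0.57, adjusted p = 0.00137), the second 12 h array being 5.26-fold above the first. Klf15, a glucocorticoid-induced regulator of amino acid breakdown, went down from 1839 and 2558 to 345 and 239 (change -2.69, SE 0.25, adjusted p = 0.000110). G6pc, the glucose phosphatase that frees glucose into the blood, fell from 6735 and 9229 to 1711 and 557 (change -2.93, SE 0.45, adjusted p = 0.00187). Pck1, the other gatekeeper of glucose synthesis, read 7127 and 6739 in normal liver but 7783 and 1028 at 12 h, 1 array above and 1 far below normal, and did not pass (change -1.26, SE 0.62, adjusted p = 0.20). Igfbp1, a growth factor binding protein of fasting and regeneration, read 8926 and 8583 in normal liver and 12326 and 30878 at 12 h with no overlap and did not pass (change 1.15, SE 0.48, adjusted p = 0.133).

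Genes of glucose output and glycogen were called lower more than higher. In that list 2 of 19 rose and 5 fell, with a median of -0.43 (-0.06 in the first 12 h array and -0.30 in the second). The count of 7 moved to 4 without the second normal array. Ppp1r3c, which targets a phosphatase to glycogen, fell from 1625 and 1782 to 289.7 and 86.1 (change -2.98, SE 0.34, adjusted p = 0.000351), and Ugp2, which makes UDP-glucose for glycogen, from 6349 and 8932 to 3308 and 3103 (change -1.22, SE 0.24, adjusted p = 0.00801). Pdk2 fell from 969.6 and 1637 to 309 and 228 (change -2.03, SE 0.27, adjusted p = 0.000941), opposite to its paralog Pdk4. The glucagon receptor Gcgr changed by -0.97 (adjusted p = 0.0494) and Sik1, a kinase that restrains glucose output, rose by 1.22. Of glycolysis genes 1 of 16 rose, Pfkfb3 (1.02), and 1 fell, the liver pyruvate kinase Pklr (-0.94, adjusted p = 0.0644 with the block). These counts are near the shares over all genes, 6.05% and 6.74%. Ugp2, Gcgr, Sik1, Pfkfb3 and Pklr did not pass without the second normal array (adjusted p between 0.0761 and 0.359). Gcgr and Pklr did not pass without the first 12 h array (adjusted p between 0.134 and 0.184). Gcgr, Sik1 and Pklr did not pass without the second 12 h array (adjusted p between 0.050 and 0.154). For Ugp2 (change -0.28 and -0.74 and -0.61) dimmer probe sets did not pass, while another did (-0.93). Dimmer probe sets of Pklr passed, with changes of -2.69 and -1.19.

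Genes of cholesterol synthesis fell at steps from the head of the pathway to its end. Of 19 tested genes 11 fell and 0 rose, with a median of -1.1 (-1.04 and -1.24 in the 12 h arrays), the largest share of falls among the lists. In place of 11 calls there were 5 without the second normal array, 7 without the second 12 h array and 5 without the 4 arrays of low 5′ signal. Hmgcs1, which makes HMG-CoA at the head of the pathway, read 10628 and 11659 in normal liver and 2446 and 2692 at 12 h (change -2.09, SE 0.26, adjusted p = 0.000571). Mvk, mevalonate kinase, read 485 and 882 and was not above background at 12 h, at least 5.48-fold lower (adjusted p = 0.000230). Fdft1, squalene synthase, read 2240.1 and 2035 in normal liver and 618 and 706 at 12 h (change -1.61, SE 0.23, adjusted p = 0.00121). The groups lay well apart in each, with even 12 h arrays for Hmgcs1 and Fdft1. Sc5d and Dhcr7, which act in the last steps from lanosterol to cholesterol, fell from 9551 and 10660.2 to 1749 and 2311 and from 2109 and 2970.5 to 649 and 688, changes of -2.29 and -1.82. Lss, Cyp51 and Fdps changed by -1.51, -1.1 and -1.43. Lss, Cyp51 and Fdps did not pass without the second normal array (adjusted p between 0.0566 and 0.0837). Lss and Fdps did not pass without the second 12 h array (adjusted p between 0.0570 and 0.0589).

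Genes of fatty acid synthesis fell together with several of their regulators. In that list 12 of 28 tested genes fell and 1 rose, with a median of -0.93. Called members numbered 8 without the second normal array, against 13. Srebf1, the factor SREBP1 that insulin induces, read 4117 and 4429 in normal liver and 752 and 1682 at 12 h (change -1.87, SE 0.31, adjusted p = 0.00258). Mlxipl, the glucose-sensing factor ChREBP, read 4836 and 6194 in normal liver and 801 and 1866 at 12 h (change -2.11, SE 0.33, adjusted p = 0.00193). Both were lowest in the first 12 h array. Acly, ATP citrate lyase, read 6057 and 5507 in normal liver and 938 and 2225 at 12 h (change -1.95, SE 0.34, adjusted p = 0.00336), and Acacb, the carboxylase whose product restrains fat burning, was not above background at 12 h, at least 9.38-fold lower (adjusted p = 0.00451). Acss2, Mid1ip1 and Angptl8 changed by -1.84, -1.64 and -2.17. Fasn, fatty acid synthase, fell from 4912 and 5604 to 2727 and 2613 (change -0.96, SE 0.23, adjusted p = 0.0186). The gene that rose was Lpin1, a phosphatase on the way to triglyceride (change 1.5, SE 0.30, adjusted p = 0.00716). Fasn and Lpin1 did not pass without the second normal array (adjusted p between 0.0546 and 0.122). Fasn did not pass without the second 12 h array (adjusted p of 0.0648).

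Several transcripts for lipid droplet proteins rose at the same time. Of 23 genes of droplets and fatty acid uptake 9 rose and 2 fell, around a median of 0.14 (0.55 in the first 12 h array and -0.05 in the second). The 11 called members became 7 without the 4 arrays of low 5′ signal. Cidec, a protein that fuses droplets, was not above background in normal liver and read 3163 and 1152 at 12 h, at least 33.9-fold higher (adjusted p = 3.84e-05). Plin2, the main droplet coat of hepatocytes, read 11952 and 15635 in normal liver and 39264 and 31919 at 12 h (change 1.37, SE 0.28, adjusted p = 0.00915), and Plin5 565 and 673 in normal liver and 1393 and 1375 at 12 h (change 1.1, SE 0.21, adjusted p = 0.00638). Pnpla2, the lipase ATGL that opens droplets, rose by 1.42, Angptl4, an inhibitor of lipoprotein lipase, by 1.36 and the fatty acid binding protein Fabp4 by 1.87. Apoa4, an apolipoprotein of lipid export, read 1362 and 1319 in normal liver and 24031 and 14267 at 12 h (change 3.73, SE 0.32, adjusted p = 5.90e-05). Lpl, lipoprotein lipase, fell from 2364 and 3095 to 734 and 1437 (change -1.34, SE 0.30, adjusted p = 0.0138). Cidec and Fabp4 are also on the adipose tissue marker list, of which 4 of 8 tested genes rose. The others that rose were Retn, resistin, from 129 and 48.2 to 311 and 382 (change 1.52, SE 0.32, adjusted p = 0.0104), and Plin4, a droplet coat protein of adipocytes, from 30.1 and 128 to 171 and 578 (change 1.58, SE 0.46, adjusted p = 0.0426). The 4 that did not pass were Lipe, Adig, Pck1 and Car3, and the untested Adipoq, Lep, Cidea and Ucp1 were not above background in any of the 4 arrays. The untested Acvr1c read 110 and 46.8 in normal liver and 122 and 125.4 at 12 h. It was above background in both normal arrays and in 1 of the 12 h arrays. The list's summed intensity was 56982 and 67957 in normal liver and 47829 and 53329 at 12 h, of which Car3 and Pck1, which hepatocytes express strongly, made up 85.9% to 98.1%. Without these, left out after the data were seen, it was 1623 and 1278 in normal liver and 6765 and 4436 at 12 h, and Cidec is part of that sum. The part of adipose tissue in these rises was not tested. Of fatty acid oxidation and ketone genes 3 of 30 rose and 1 fell, and of oxidative phosphorylation genes 3 of 59 fell and 0 rose, with medians of -0.20 and -0.28. Over all genes 6.05% rose and 6.74% fell. Plin4 did not pass without the first normal array (adjusted p of 0.171). Lpl and Retn did not pass without the second normal array (adjusted p between 0.107 and 0.116). Lpl did not pass without the first 12 h array (adjusted p of 0.0705). Retn and Plin4 did not pass without the second 12 h array (adjusted p between 0.0538 and 0.275). For Fabp4 a dimmer probe set did not pass (change 0.27), while another did (1.91).

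Genes of bile acid synthesis and transport fell. In this list 11 of 27 tested genes fell and 0 rose, with a median of -0.71. The count of 11 moved to 6 without the second normal array. Cyp7a1, which starts the main route to bile acids and limits its rate, read 1104 and 1348 in normal liver and 191 and 308 at 12 h (change -2.09, SE 0.30, adjusted p = 0.00122). Cyp8b1, which sets the share of cholic acid, read 4809.7 and 5272 in normal liver and 1539 and 1346 at 12 h (change -1.77, SE 0.28, adjusted p = 0.00213), and Hsd3b7, the next enzyme after Cyp7a1, 13957 and 12756 in normal liver and 3908 and 5062 at 12 h (change -1.57, SE 0.22, adjusted p = 0.00105). Abcb11, the bile salt export pump, read 8699 and 9306 in normal liver and 1716 and 2601 at 12 h (change -2.06, SE 0.25, adjusted p = 0.000465). In each of these 4 genes the higher 12 h array was more than 2-fold below the lower normal array. Nr0b2, the repressor SHP that bile acids induce through the receptor FXR, fell too, from 1704 and 1788 to 215 and 491 (change -2.22, SE 0.34, adjusted p = 0.00169), as did the activator Nr5a2 (-1.1). For Nr5a2 a dimmer probe set did not pass (change -0.41), while another did (-1.35).

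Among liver transcription factors and nuclear receptors 10 of 33 fell and 2 rose, with a median of -0.76. In place of 12 calls there were 5 without the 4 arrays of low 5′ signal. Nr1i3, the xenobiotic receptor CAR, read 1824 and 1423 in normal liver and 653 and 315 at 12 h (change -1.7, SE 0.33, adjusted p = 0.00694). Nr3c1, the glucocorticoid receptor, fell from 821 and 1097 to 396 and 491 (change -1.01, SE 0.24, adjusted p = 0.0185). Hnf4a, the master factor of hepatocytes, read 5098 and 6312 in normal liver and 6091 and 5698 at 12 h with overlapping arrays and did not pass (change 0.05, SE 0.23, adjusted p = 0.895). Cebpa, a brake on hepatocyte division, read 7398 and 9734 in normal liver and 2250.3 and 7111 at 12 h, low in the first 12 h array and near normal in the second, and did not pass (change -1.07, SE 0.40, adjusted p = 0.103). Without the 4 arrays of low 5′ signal it passed, at an adjusted p of 0.0274. The risers were Cebpb and Cebpd, given above. Nr3c1 did not pass without the second normal array (adjusted p of 0.150). Nr3c1 did not pass without the first 12 h array (adjusted p of 0.0710). For Nr3c1 a dimmer probe set did not pass (change -0.57), while another did (-1.01).

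Growth hormone shapes a set of liver genes that differ between the sexes, and of these 8 of 22 fell and 0 rose, with a median of -0.57. Hsd3b5, a male-biased steroid reductase, read 3052 and 4494 in normal liver and was not above background at 12 h, at least 31-fold lower (adjusted p = 3.17e-05). Keg1, an acyltransferase, read 6975 and 6039 in normal liver and 238 and 348 at 12 h (change -4.24, SE 0.24, adjusted p = 4.50e-06). Igfals, which holds IGF1 in serum, fell from 1381 and 2341 to 217 and 406 (change -2.38, SE 0.34, adjusted p = 0.00119), and the growth hormone receptor Ghr from 8665 and 9718 to 2723 and 4353 (change -1.4, SE 0.24, adjusted p = 0.00338). Igf1 itself read 9740.3 and 10985 in normal liver and 7489.9 and 8489 at 12 h and did not pass (change -0.37, SE 0.26, adjusted p = 0.355). Among growth factors and receptors as a list, 2 of 27 rose and 4 fell, against 6.05% and 6.74% over all genes. Erbb3, a partner of the EGF receptor, fell from 3118 and 3617 to 1405 and 275 (change -2.29, SE 0.49, adjusted p = 0.0114), while Egfr (0.12) and Hgf (0.43) did not pass. Met, the HGF receptor, read 318 and 541 in normal liver and was not above background at 12 h, and this did not pass (adjusted p = 0.0732). Erbb3 did not pass without the second normal array (adjusted p of 0.0837). For Ghr a dimmer probe set did not pass (change -0.92), while another did (-1.53).

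Of drug-metabolising genes, P450 genes were called lower more than higher. Of cytochrome P450 genes 10 of 35 fell and 1 rose, with a median of -0.44, against 6.74% falling and 6.05% rising over all genes. Called members numbered 2 without the second normal array, 5 without the first 12 h array and 5 without the 4 arrays of low 5′ signal, against 11. The riser was Cyp2b10, the classic target of CAR, which read 1914 and 2627 in normal liver and 14827 and 8461 at 12 h (change 2.29, SE 0.30, adjusted p = 0.000806), while its paralog Cyp2b9 fell from 1623 and 1839 to 242 and 534 (change -2.08, SE 0.30, adjusted p = 0.00121). The probe set of Cyp2b10 is of a kind that can share sequence with relatives. Of transferases 4 of 38 rose and 3 fell, to be set against the same 6.05% and 6.74% over all genes. The 7 called members became 4 without the second normal array and 4 without the 4 arrays of low 5′ signal. Sult1e1, which sulfates oestrogens, was not above background in normal liver, read 675 and 1308 at 12 h and was at least 16.7-fold higher (adjusted p = 0.000646). Nnmt, which methylates nicotinamide, went from 2690.4 and 3393 to 17993 and 6409 (change 1.81, SE 0.37, adjusted p = 0.00843), and Fmo1, a flavin monooxygenase, from 4074 and 4795 down to 1249 and 1706 (change -1.56, SE 0.23, adjusted p = 0.00129).

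Genes of amino acid breakdown were called lower more than higher. Of the urea cycle and amino acid list 11 of 48 fell and 2 rose, with a median of -0.43. The count of 13 moved to 7 without the second normal array and 6 without the 4 arrays of low 5′ signal. Hal, the first enzyme of histidine breakdown, fell from 5436 and 8583 to 616 and 1045 (change -3.0, SE 0.31, adjusted p = 0.000205). Amdhd1, a later enzyme of the same branch, fell from 2727 and 3086 to 892 and 1127 (change -1.48, SE 0.22, adjusted p = 0.00158). Prodh, proline dehydrogenase, fell from 3675 and 4772 to 1126 and 1609 (change -1.6, SE 0.25, adjusted p = 0.00196), and Gldc of the glycine cleavage system from 1914 and 1716 to 707 and 672 (change -1.32, SE 0.20, adjusted p = 0.00169). Csad, the taurine-forming decarboxylase, rose from 694 and 752 to 2119 and 3106 (change 1.75, SE 0.25, adjusted p = 0.00115). Cps1, the entry of the urea cycle, read 29870.0 and 33171 in normal liver and 28328 and 23886 at 12 h and did not pass (change -0.27, SE 0.23, adjusted p = 0.449). Otc, ornithine transcarbamylase, the next enzyme of that cycle, named after its value was seen, fell from 10657 and 9614 to 5568 and 5681 (change -0.84, SE 0.23, adjusted p = 0.0335), and did not pass without any single one of the 4 arrays (adjusted p between 0.0769 and 0.106). A dimmer probe set of Otc did not pass (change -0.40).

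Among plasma protein genes outside the acute phase more were called lower than higher. Of coagulation and complement genes 7 of 30 fell and 0 rose, with a median of -0.56. In place of 7 calls there were 1 without the second normal array, 4 without the first 12 h array and 4 without the 4 arrays of low 5′ signal. Klkb1, prekallikrein, read 3572 and 5171 in normal liver and 382 and 1064 at 12 h (change -2.63, SE 0.38, adjusted p = 0.00128), and Serpind1, heparin cofactor II, 8231 and 10473 in normal liver and 1956 and 4095 at 12 h (change -1.69, SE 0.32, adjusted p = 0.00563). C8b, C1s1, Mbl2, F13b and F11 changed by -1.0, -1.15, -0.93, -0.86 and -1.0. Of plasma carriers and apolipoproteins 1 of 27 rose and 1 fell. Alb, albumin, read 46243 and 64350.4 in normal liver and 48814 and 41241 at 12 h with overlapping arrays (change -0.28, SE 0.29, adjusted p = 0.543), and Afp, the fetal counterpart, did not pass (change 0.65, SE 0.35, adjusted p = 0.240). Mbl2, F13b and F11 did not pass without the first normal array (adjusted p between 0.0597 and 0.0955). Serpind1, C8b, C1s1, Mbl2, F13b and F11 did not pass without the second normal array (adjusted p between 0.0505 and 0.127). C8b, C1s1, Mbl2, F13b and F11 did not pass without the first 12 h array (adjusted p between 0.0513 and 0.167). C1s1 did not pass without the second 12 h array (adjusted p of 0.0535).

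Genes of the cytoskeleton rose, 9 of 34 with 0 falling. Called members numbered 3 without the 4 arrays of low 5′ signal, against 9. Tubb6, a beta tubulin, read 39.3 and 78.7 in normal liver and 897 and 1661 at 12 h (change 3.48, SE 0.35, adjusted p = 0.000181). Actg1, cytoplasmic actin, read 3089 and 3852 in normal liver and 19059 and 16735 at 12 h (change 2.35, SE 0.22, adjusted p = 0.000123), and the tropomyosin Tpm4 524 and 383 in normal liver and 1557 and 1452 at 12 h (change 1.63, SE 0.23, adjusted p = 0.00121). Every 12 h array of these exceeded every normal array by more than 2-fold. Krt18, a hepatocyte keratin, rose by 1.7, Tubb2a by 1.77 and the myosin light chain Myl12a by 1.27. Tubb2a did not pass without the second normal array (adjusted p of 0.0512). For Myl12a (change 0.34) dimmer probe sets did not pass.

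Markers of the cells a liver sample holds were set beside these results. Of the hepatocyte list 0 of 13 genes were called by limma and 1 had an unadjusted p under 0.05, all 13 were above background in every array, and its summed intensity was 644148 and 822036 in normal liver and 734250 and 610705 at 12 h. Of Kupffer cell and macrophage markers 5 of 21 tested genes fell and 1 rose, and their summed intensity was 22058 and 21823 in normal liver against 15277 and 14952 at 12 h. The 6 called members became 2 without the second normal array, 12 without the first 12 h array and 0 without the 4 arrays of low 5′ signal. Clec4f, a lectin of Kupffer cells, fell from 1723 and 1974 to 813 and 509.8 (change -1.44, SE 0.25, adjusted p = 0.00342), and Csf1r, their growth factor receptor, from 2691 and 2893 to 1076 and 1316 (change -1.19, SE 0.21, adjusted p = 0.00384). Lyz2, Cd5l and C1qc were the other fallers, and C1qc did not pass with the 4 arrays of low 5′ signal as a block. With 1 array left out at a time, their falls ranged from 0.96 to 1.22, 1.03 to 2.34 and 0.60 to 1.09 in turn. No call of these stood in every such fit. Cd14 was the riser, from 311 and 198 in normal liver to 941 and 4162 at 12 h (change 2.75). Its call stood in 3 of the 4 fits that left out 1 array. Ctss, at 1513 and 905 in normal liver and 1207 and 1210 at 12 h, did not pass. In bulk RNA fewer cells of a type and less RNA per cell cannot be told apart. Neutrophil markers rose in 2 of 11, Lcn2, which hepatocytes also make, and S100a8, a calcium-binding protein, which went from 9.2 and 61.5 to 314 and 325 (change 2.09, SE 0.42, adjusted p = 0.00783). Interferon-response and class I genes fell in 5 of 25 and rose in 0, with a median of -0.52, such as the GTPases Igtp (change -1.88, SE 0.25, adjusted p = 0.000941) and Ifi47 (change -1.68, SE 0.28, adjusted p = 0.00286). The count of 5 moved to 3 without the second normal array and 2 without the 4 arrays of low 5′ signal. Of 18 tested stellate cell and fibroblast markers 2 rose and 1 fell, with a median of 0.02, against 6.05% rising and 6.74% falling over all genes. Timp1, an inhibitor of matrix proteases, and Col4a1, a basement membrane collagen, rose by 1.75 and 1.5, and Col3a1, a fibrillar collagen, fell (change -1.46). Of endothelial markers 2 of 19 rose, Lyve1, a hyaluronan receptor of sinusoidal cells (1.82), and Esam, an adhesion protein (1.01), and 3 fell, the sinusoidal Fc receptor Fcgr2b (-1.56, from 1261 and 1601 to 734 and 263), Dnase1l3 (-0.76) and Oit3 (at least 2.95-fold). Sox9 rose among 5 cholangiocyte and progenitor markers, from 102 and 11.9 to 182 and 1038 (change 2.29, SE 0.55, adjusted p = 0.0192), the second 12 h array being 5.69-fold above the first, and the transferrin receptor Tfrc among 6 erythroid ones (0.93). By limma 0 of 6 lymphocyte and 0 of 2 mesothelium markers were called, with 0 and 1 at an unadjusted p under 0.05. Exocrine pancreas transcripts summed to 6695 and 3098 in normal liver and 12311 and 6906 at 12 h, with 0 of 32 called (3 at an unadjusted p under 0.05), and skeletal muscle transcripts to 4863 and 2644 in normal liver and 7146 and 7483 at 12 h, with 1 of 24 called, the actin Acta1, which rose. At an unadjusted p under 0.05, 8 muscle genes were higher and 0 lower. Their median was 0.74, and 23 of 24 changes were above 0, against 57.5% over all genes. Some tested genes of the muscle and pancreas lists were below background in all 4 arrays and passed the filter through other arrays. Tnni2, at 5.4 and 4.9 in normal liver and 31.5 and 10.9 at 12 h, is an example. These counts are therefore no test of a rise in muscle or pancreas transcripts. Dnase1l3 did not pass without the first normal array (adjusted p of 0.132). Lyve1, Esam, Fcgr2b, Dnase1l3, Sox9, Tfrc and Acta1 did not pass without the second normal array (adjusted p between 0.0617 and 0.182). Acta1 did not pass without the first 12 h array (adjusted p of 0.0657). Lyve1, Esam, Fcgr2b, Dnase1l3, Sox9 and Tfrc did not pass without the second 12 h array (adjusted p between 0.0702 and 0.158). For Csf1r (change -0.61), Fcgr2b (change -0.39 and -1.19 and -0.92) and Tfrc (change 1.0) dimmer probe sets did not pass, while another of Csf1r did (-1.14).

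Few probe sets were called between 8 h and 12 h. Of the 13576 probe sets 2 (0.0147%) were higher at 12 h than at 8 h and 66 (0.486%) lower, 68 in all (0.501%). At 8 h the arrays held exocrine pancreas transcripts, summing to 633736 and 575129, against 12311 and 6906 at 12 h. Of the 32 tested genes of that list 28 were lower at 12 h. The filter used the mean over all arrays, those at 8 h among them, and so favoured genes that were high at 8 h. Pnliprp2, at 11 and 6.5 in normal liver and 5.4 and 7.7 at 12 h, passed it through other arrays. The count of 28 is therefore in part set by the filter and is no separate test of a fall. Without the genes of the pancreas and muscle lists 17 probe sets were lower. Outside these lists Saa4 read 3716 and 4746 at 8 h against 1798 and 1009.8 at 12 h, a difference of -1.6 (SE 0.28, adjusted p = 0.0236), and the interferon-induced chemokine Cxcl9 read 245 and 266 at 8 h, at least 2.13-fold lower at 12 h (adjusted p = 0.0307). Nfx1, a transcription factor gene, was higher at 12 h, with 79.8 and 88.2 at 8 h and 338 and 340.1 at 12 h (difference 1.49, SE 0.27, adjusted p = 0.0292), near its normal level of 422 and 310.0. Tff2, Nupr1, Krt4, Gga1, Serpini2 and Dmkn were also lower than at 8 h, and the part of pancreatic RNA in these was not tested. The count of probe sets moved with every array left out. Without the first 12 h array 134 were higher and 227 lower, without the second 3 and 32, and without the first or the second 8 h array 21 and 18 were lower. Medians of the difference from 8 h were 0.11 for ribosome biogenesis, -0.17 for cholesterol synthesis and 0.00 for acute-phase genes, against 0.03 over all genes.

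Between 12 h and 36 h the replication and sterol genes parted. At 12 h 177 probe sets (1.3%) were higher and 420 (3.09%) lower than at 36 h, 597 in all (4.4%). Exocrine pancreas transcripts summed to 3748 and 104965 in the 36 h arrays, against 12311 and 6906 at 12 h. Of the 32 tested genes of that list 0 were called. Leaving out genes of the pancreas and muscle lists gave 177 and 420 again. The part of pancreatic RNA in the other calls was not tested. Replication genes were lower at 12 h in 14 of 24 and mitosis genes in 12 of 23, with medians of -1.33 and -1.31 against 0.06 over all genes. Pcna read 1358 and 1215 at 12 h and 4356 and 4025 at 36 h (difference -1.66, SE 0.21, adjusted p = 0.00122), and Mcm6, a helicase subunit, was not above background at 12 h and read 1391 and 1373 at 36 h, at least 11.6-fold lower (adjusted p = 0.000554). Cdk1 was at least 6.99-fold lower than at 36 h, where it read 931 and 748. Ccnd1 read 3659 and 3783 at 36 h, above both 12 h arrays (difference -1.88, SE 0.45, adjusted p = 0.0355). Cholesterol genes were lower at 12 h in 14 of 19, with a median of -1.52, and Hmgcs1 read 16763 and 17206 at 36 h against 2446 and 2692 at 12 h (difference -2.7, SE 0.26, adjusted p = 0.000368). For Hmgcs1 the 36 h arrays also exceeded both normal arrays. Higher at 12 h were Cyp2b10 (difference 2.25, SE 0.30, adjusted p = 0.00164) and Hamp2, a hepcidin, which read 17810.0 and 18765 in normal liver, 11063 and 8377 at 12 h and 846 and 1599 at 36 h (difference 2.98, SE 0.27, adjusted p = 0.000366). Myc was higher at 12 h than at 36 h as well (difference 1.79, SE 0.39, adjusted p = 0.0240). Without the 4 arrays of low 5′ signal, which leaves 1 array on each side, 8 were higher and 9 lower, and 11 of the 597 calls stood, with all 597 of the same sign. Called probe sets did not overlap between 12 h and 36 h, so those signs could not have changed. Leaving out 1 array at 36 h gave 53 or 66 higher and 162 or 129 lower, and leaving out the first 12 h array 387 and 653.

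**Figure D4:**
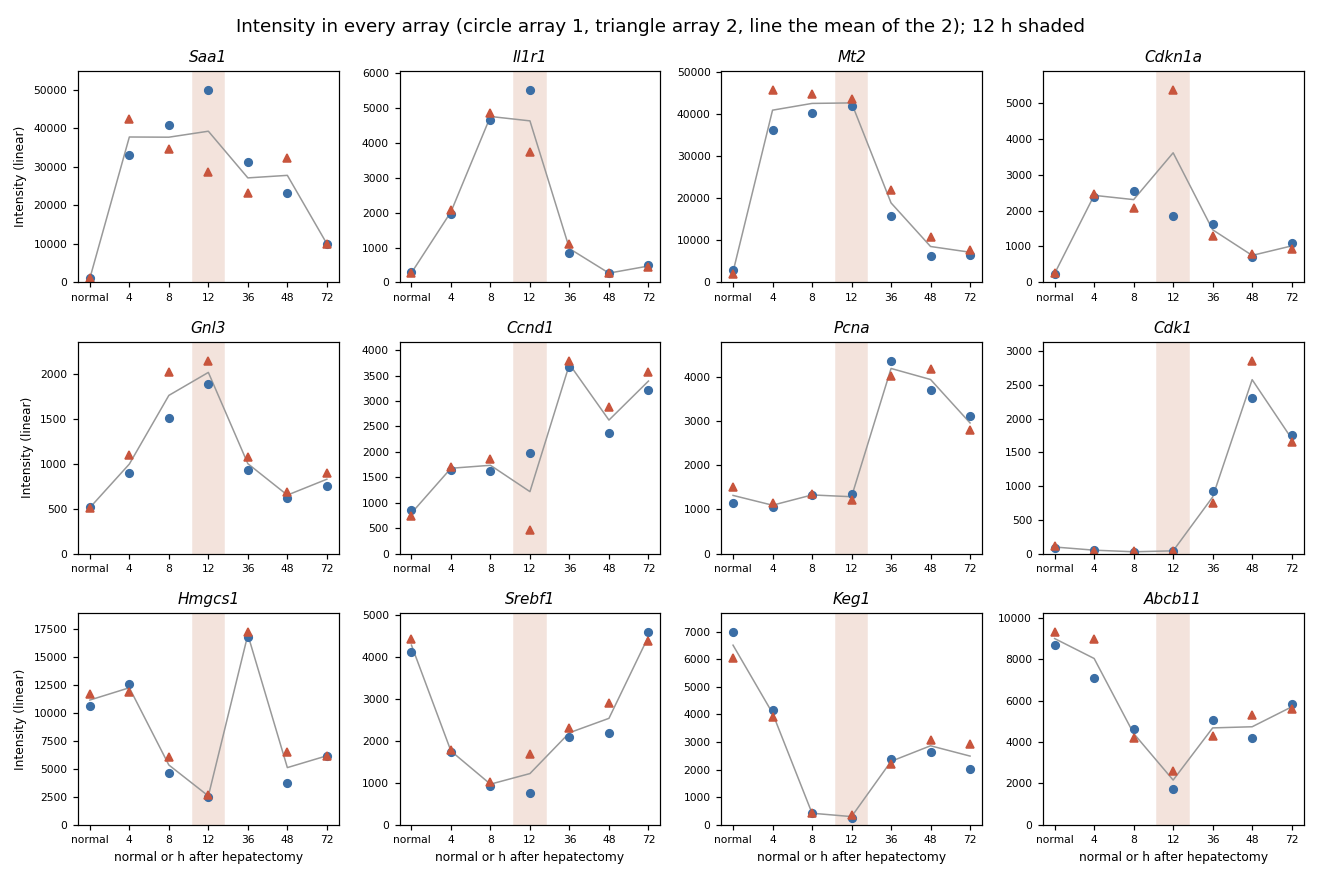
Intensity of 12 genes in each of the 14 arrays by time after hepatectomy, on linear axes that start at 0, with circles for the first array, triangles for the second and a line through their mean. At 12 h (shaded) Saa1, Il1r1, Mt2 and Gnl3 stand above normal liver and Hmgcs1, Srebf1, Keg1 and Abcb11 below it, while Pcna and Cdk1 exceed normal liver only at 36 h and later. Ccnd1 and Cdkn1a show arrays far apart at 12 h.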

How the data were processed

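Values were the intensities of the deposited table, on a linear scale, and no source used here names the software that made them. Per the series' design text, the authors used GeneSpring 7.2 to select genes by 2-fold changes. Of 22690 probe sets, 64 controls were left out and tests ran on the 13576 whose mean reached the 40th percentile (128.8). Names came from the platform annotation, with 1 symbol for 20380 probe sets, several for 691 and none for 1555. The log2(intensity + 57) values of 14 arrays were fitted with limma 3.58.1 in R 4.3.3, a mean for each of 7 groups. Fits were tested on simulated data. Above background means over the array's 95th percentile among its 27 bacterial controls. That level was 72.6 and 43.6 in normal liver and 103 and 138 at 12 h, so a dim gene can drop below it at 12 h without a change. Lists held 1 probe set a gene, the brightest. Genes to name were picked as the 20 top rises and falls against normal liver, the 10 largest against 8 and 36 h, up to 8 called and 3 uncalled members a list, and fixed landmarks. Adipoq, Lep, Cidea, Ucp1 and Nfkbib were added or named for their role. Cks1b, Pclaf, Pole4, Wee1, Ska2, Cdc16, Haus2, Otc, Acvr1c, Pnliprp2 and Tnni2 were named after their values were seen. Members and lists were chosen with earlier results of these data known. Bounds used the lowest level above background on each array. Alternatives changed normalization, pseudocount, filter, variance model, blocks, arrays and probe set averaging.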

Additional observations from a re-analysis of the deposited data

Results flagged for a closer look

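The change after hepatectomy differed between 12 h and the neighbouring times for the genes below, by the limma contrast of the 2 times itself with adjusted p under 0.05, and each value is a difference on the log2 scale, 12 h minus the other time. Against 8 h, Nfx1 was higher by 1.49. Lower at 12 h than at 8 h were Tff2 (-3.81), Nupr1 (-3.77), Krt4 (-3.28), Gga1 (-2.89), Serpini2 (-2.43), Dmkn (-1.76), Saa4 (-1.60) and Cxcl9 (-1.27). Gga1, Saa4 and Cxcl9 had also been called lower than in normal liver.

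Against 36 h, higher values at 12 h were found for Gadd45b (3.11), Rab30 (3.07), Hamp2 (2.98), Hmox1 (2.97), Crybb3 (2.43), Ifrd1 (2.41), Gpaa1 (2.34), Rusc2 (2.32), Tiparp (2.26) and Cyp2b10 (2.25). Of these Gadd45b, Rab30, Tiparp and Hmox1 were over 4-fold higher in the second 12 h array than in the first. Lower at 12 h than at 36 h were Mcm6 (-3.86), Mvk (-3.29), Ly6d (-3.25), Cdk1 (-3.20), Hsd3b5 (-3.15), Selenoh (-2.93), Ube2c (-2.89), Birc5 (-2.78), Keg1 (-2.77) and Hmgcs1 (-2.70), among them Mcm6 of the replicative helicase, Birc5 and Ube2c of mitosis, and Hmgcs1 and Mvk of cholesterol synthesis. Groups of 2 arrays are too small for a search for single outlying arrays.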

How the results depend on the processing

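No named result changed sign in any alternative that was called there, and counts moved with the arrays and the spread estimate. Against normal liver, array weights gave 275 probe sets higher and 309 lower, the fit without the 4 arrays of low 5′ signal 233 and 277, and a fit on the 4 arrays alone 144 and 179. A 2-fold rule with no test gave 1573 higher. Leaving out 1 array gave 274 to 1380 higher and 305 to 944 lower. Against 8 h, the count higher was 1 with quantile normalization, with either other pseudocount and with an intensity trend. It was 0 with the stricter filter, with array weights, without the 4 arrays, on the 4 arrays alone and with probe sets averaged by gene, 239 by the 2-fold rule and 0 to 134 with 1 array left out. The count lower was 29 with the lower pseudocount of 14.25, 28 with array weights, 40 with probe sets averaged, 267 by the 2-fold rule, 17 without pancreas and muscle genes and 18 to 227 with 1 array left out. Against 36 h, 268 were higher with 4 times the pseudocount, 8 higher and 9 lower without the 4 arrays, 0 and 0 on the 4 arrays alone, and 789 and 869 by the 2-fold rule. With 1 array left out there were 53 to 387 higher and 129 to 653 lower.

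Replicate numbers did not pair the arrays across all groups, with correlations of deviations from -0.18 to 0.53 between groups. Among the 8, 12, 36 and 72 h groups, whose second arrays had the low 5′ ratio, all were positive (0.144 to 0.307). The highest was between normal liver and 48 h. With the replicate number as a block 861 probe sets were higher and 903 lower against normal liver, 2 and 55 against 8 h, and 198 and 432 against 36 h, and 234 of the 240 named calls passed. Without the 8 h arrays, chosen after the data were seen, 667 and 731 were called against normal liver. Dim probe sets limit the rest, since 59.0% to 72.9% of probe sets were above background in the 4 arrays.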

Other observations

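Some genes of splicing and nuclear RNA rose at 12 h. Of 28 tested genes 5 rose and 1 fell, with a median of 0.19, against 6.05% rising and 6.74% falling over all genes. Srsf3, a splicing factor of the SR family, read 405 and 507 in normal liver and 1894 and 923 at 12 h (change 1.44, SE 0.30, adjusted p = 0.00925 in the limma fit). Hnrnpd and Hnrnpab, which bind nuclear RNA, rose by 1.31 and 1.07. Rsrp1, an arginine and serine rich protein, fell from 1911 and 2862 to 878 and 213 (change -2.25, SE 0.51, adjusted p = 0.0146). The 6 called members became 2 without the second normal array, 10 without the first 12 h array and 1 without the 4 arrays of low 5′ signal. Among clock genes 2 of 13 rose and 1 fell. Beside Per1 these were Dbp, an output factor of the clock, which went from 163 and 89.1 to 346 and 254 (change 0.98, SE 0.25, adjusted p = 0.0225), and Clock itself, from 318 and 313 to 171 and 74.8 (change -1.1, SE 0.27, adjusted p = 0.0202). No source used here gives the hour of day at which tissue was taken. Hnrnpd, Rsrp1, Dbp and Clock did not pass without the second normal array (adjusted p between 0.102 and 0.196). Hnrnpd and Dbp did not pass without the first 12 h array (adjusted p between 0.0892 and 0.0940). Rsrp1 and Clock did not pass without the second 12 h array (adjusted p between 0.0942 and 0.124). For Srsf3 (change 1.0 and 0.64), Hnrnpab (change 0.01 and 1.26 and 0.71), Rsrp1 (change -0.93), Dbp (change 0.51) and Clock (change -0.34) dimmer probe sets did not pass. Others passed for Srsf3 (1.32 and 1.42), Hnrnpab (1.51) and Rsrp1 (-1.53).

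Of the 1081 called genes 818 stood in no list. Among the 20 largest falls these included Coq8a, a kinase-like protein of ubiquinone synthesis, which fell from 5113 and 7678 to 318 and 588 (change -3.69, SE 0.34, adjusted p = 0.000101), and Ddc, aromatic amino acid decarboxylase, from 2672 and 2452 to 151 and 462 (change -2.99, SE 0.33, adjusted p = 0.000283). Sec14l2, a lipid-binding protein that promotes squalene oxidation, fell from 11636 and 15392 to 3643 and 1288 (change -2.59, SE 0.38, adjusted p = 0.00146). Sucnr1, the succinate receptor, was at least 6.74-fold lower, and Pde9a, which breaks down cyclic GMP, at least 4.17-fold. St13, a cochaperone, fell from 1006 and 2107 to 181 and 145 (change -2.79, SE 0.31, adjusted p = 0.000312), and Pnkd from 2568 and 2880.5 to 167 and 216 (change -3.49, SE 0.25, adjusted p = 1.29e-05), with a dimmer probe set of Pnkd that did not pass. For Psen2, a presenilin, the brightest probe set fell from 5003 and 5305 to 551 and 1142 (change -2.61, SE 0.29, adjusted p = 0.000278), while a dimmer one changed by 0.75 and did not pass, so that the gene's direction depends on the probe set. Of the rises 2010003K11Rik, a gene of unknown role, went from 372 and 268 to 4110.5 and 3985 (change 3.46, SE 0.24, adjusted p = 1.29e-05).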
